A study of Homo sapiens with 12 samples.

Results

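Class III endogenous retroviral elements made up 7 of the 45 repeat elements counted in THP-1 cells, and each was counted on a plus and on a minus strand. They were taken by name: THE1C, MSTB1, MSTB2, MSTC and MLT1E1 of the mammalian apparent LTR retrotransposons (MaLR), and MLT2B5 and HERVL18 of the ERVL family. THP-1 is a long-established line grown from a human monocytic leukaemia (acute myeloid leukaemia, in the labels). Its cells received SETDB1 sgRNA 9 or a non-targeting sgRNA, were put under 1 µg/ml puromycin 48 h after transduction, and were collected at day 4 or day 7. The 4 groups, with 3 libraries each, were SETDB1 sgRNA 9 at day 4, non-targeting sgRNA at day 4, SETDB1 sgRNA 9 at day 7 and non-targeting sgRNA at day 7. The title of the series asks whether repeats come to be transcribed in both directions once SETDB1 is depleted. Groups follow the sample titles, although the design text also names a SETDB1 sgRNA 6. A single SETDB1 guide in a single line was therefore compared with a non-targeting sgRNA that the labels do not number. The labels do not say where Cas9 came from. The tables hold repeats and no genes, so neither the level of SETDB1 nor markers of monocytic cells could be checked in these libraries.

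Class III elements are old relatives of foamy-virus-like retroviruses. ERVL proviruses had their own genes, whereas MaLR elements had none that let them move alone and are thought to have used the proteins of ERVL. What remains of most copies is the long terminal repeat (LTR), the stretch with promoter and enhancer sequences that flanks an integrated copy. Among MaLR families, THE1 is the youngest and restricted to primates, MST is older, and MLT is the oldest. LTRs of THE1 have been taken up as promoters of human genes, as in Hodgkin lymphoma, where a THE1 LTR drives the receptor gene CSF1R. SETDB1 methylates histone H3 lysine 9 and is brought to retroviral sequences by KRAB zinc finger proteins and TRIM28. In mouse embryonic stem cells its loss is known to release class I and class II retroviruses more than class III.

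The table totals lay between 27388 and 58916 counts per library and were larger with SETDB1 sgRNA 9 than with the non-targeting sgRNA at each day on average. Class III elements took 6.80% to 9.92% of them. The sources used here do not give the depth of the whole libraries. A normalised count (CPM, counts per 1000000 of a library's scaled table total) is therefore relative to these 45 elements, and a change in an element is a change relative to the rest of the table. Each strand of an element is called a feature below. Of the 14 class III features 13 had enough counts to be tested among 70 tested features of the table, and HERVL18 on the minus strand did not. The sources used here do not say which strand is sense to an element, how reads from its many copies were assigned, or where the copies lie. Counts could be divided between the closely related THE1C, MSTB1, MSTB2 and MSTC models, and their separate values are uncertain to that extent. Transcripts that merely run through an LTR, such as introns, cannot be told apart from transcripts that start in it.

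THE1C, a THE1 LTR, supplied most class III counts in each group, from 61.3% ± 2.0 in the non-targeting libraries at day 7 to 62.5% ± 1.8 in those at day 4 (SD, n = 3). This is a part of counts and not a level per length. The strands were used unequally, and the order of the elements by minus strand share does not depend on length. In the non-targeting libraries at day 4 the minus strand held 78.2% ± 2.6 of the counts of MSTC, 68.8% ± 8.6 of MLT2B5, 58.7% ± 1.8 of THE1C, 58.3% ± 4.7 of MSTB1, 48.4% ± 19.1 of HERVL18, 45.5% ± 7.1 of MLT1E1 and 27.3% ± 2.9 of MSTB2 (SD, n = 3). Among neighbours in this order the libraries did not overlap between MLT2B5 and THE1C or between MLT1E1 and MSTB2, and overlapped between all other neighbours. MSTB1 and MSTB2, a pair of MST LTRs, thus had opposite main strands.

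**Figure D1:**
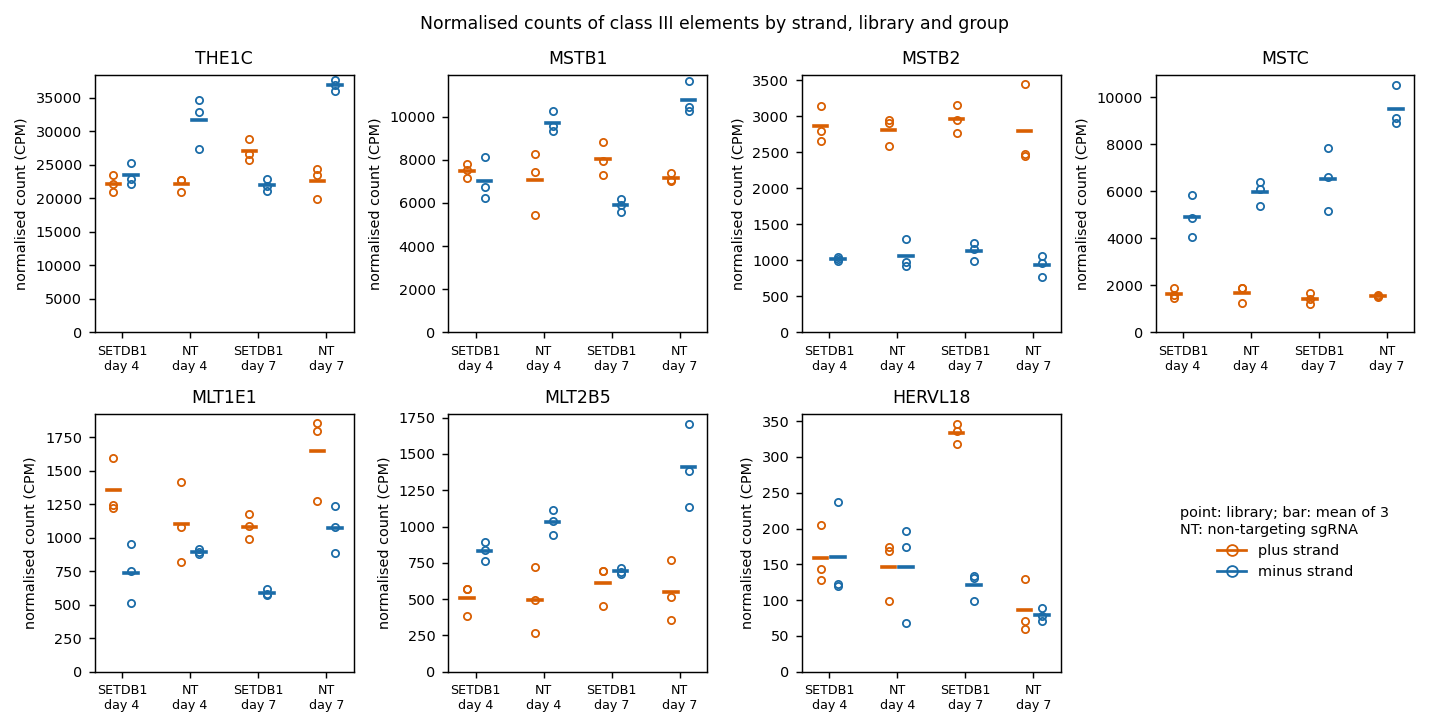
Normalised counts (CPM, y axis from 0) of the 7 class III elements, by group on the x axis, with an orange point for the plus strand and a blue point for the minus strand of each library and a bar for the mean of 3. The minus strands of THE1C, MSTB1, MSTC and MLT2B5 lie lower at day 7 with SETDB1 sgRNA 9 than with the non-targeting sgRNA, while HERVL18 on the plus strand lies higher. These values are relative to the rest of the table. In unscaled counts the fitted change of MSTC turned to 0.04 and none of the falls was called.

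After 4 days of SETDB1 sgRNA 9 the minus strands of the most abundant class III LTRs, THE1C and MSTB1, were lower relative to the table (in unscaled counts their fitted changes lay above 0), and no plus strand passed. In bulk RNA, fewer cells with such transcripts and less of them per cell cannot be told apart. THE1C had 1122, 1059 and 1212 minus strand counts in the SETDB1 libraries, against 1137, 1058 and 812 in the non-targeting ones. As deposited these counts overlapped. Scaled to the larger table totals of the SETDB1 libraries, they averaged 23426 ± 1592 CPM in SETDB1 libraries and 31626 ± 3775 CPM in non-targeting libraries (SD, n = 3), and the groups did not overlap. The log2 change was -0.43 ± 0.12 (SE; edgeR quasi-likelihood test, adjusted p = 0.00619). MSTB1, an MST LTR, had 305, 342 and 369 minus strand counts in the SETDB1 libraries and 323, 293 and 304 in the non-targeting ones. It averaged 7038 ± 985 CPM with SETDB1 sgRNA 9 and 9726 ± 472 CPM without (SD, n = 3), a log2 change of -0.47 ± 0.13 (SE; edgeR adjusted p = 0.00619). On the plus strand THE1C averaged 22186 ± 1239.5 CPM in the SETDB1 libraries and 22168 ± 1062 CPM in the non-targeting ones (SD, n = 3), which overlapped.

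Of the 13 class III features 2 were lower at day 4 and 0 were higher, in values scaled to the table, against 8.57% lower, 15.7% higher and 24.3% in either direction of the 70 features (edgeR adjusted p under 0.05). Of the 13, 2 had an unadjusted edgeR p under 0.05, against 22 of the 70. Over the table the adjusted calls split into 11 higher and 6 lower, 8 and 9 when scaled by table totals, and 35 and 0 with no scaling. The log2 changes of the 6 minus strands lay between -0.47 and -0.08 with a median of -0.30, and those of the 7 plus strands between -0.03 and 0.27 with a median of 0.02. Over the table the median was -0.13 for the 35 minus strands and 0.13 for the 35 plus strands. The other 4 minus strands, MSTC (-0.28 ± 0.16), MLT1E1 (-0.29 ± 0.24), MLT2B5 (-0.31 ± 0.22) and MSTB2 (-0.08 ± 0.21), did not pass (log2, SE). Without scaling the median of the table moved up by 0.62 on the log2 scale at day 4, and all 6 minus strands then had changes above 0, THE1C 0.17 and MSTB1 0.14, so the 2 falls are relative to the table. Both calls were lost in a fit of the day 4 libraries alone (edgeR adjusted p = 0.0533 for THE1C and 0.056 for MSTB1) and without SETDB1 sgRNA 9 replicate 3 of day 4 (edgeR adjusted p = 0.0576 for THE1C and 0.0503 for MSTB1), and that of THE1C without non-targeting replicate 2 of day 4 (edgeR adjusted p = 0.0689).

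**Figure D2:**
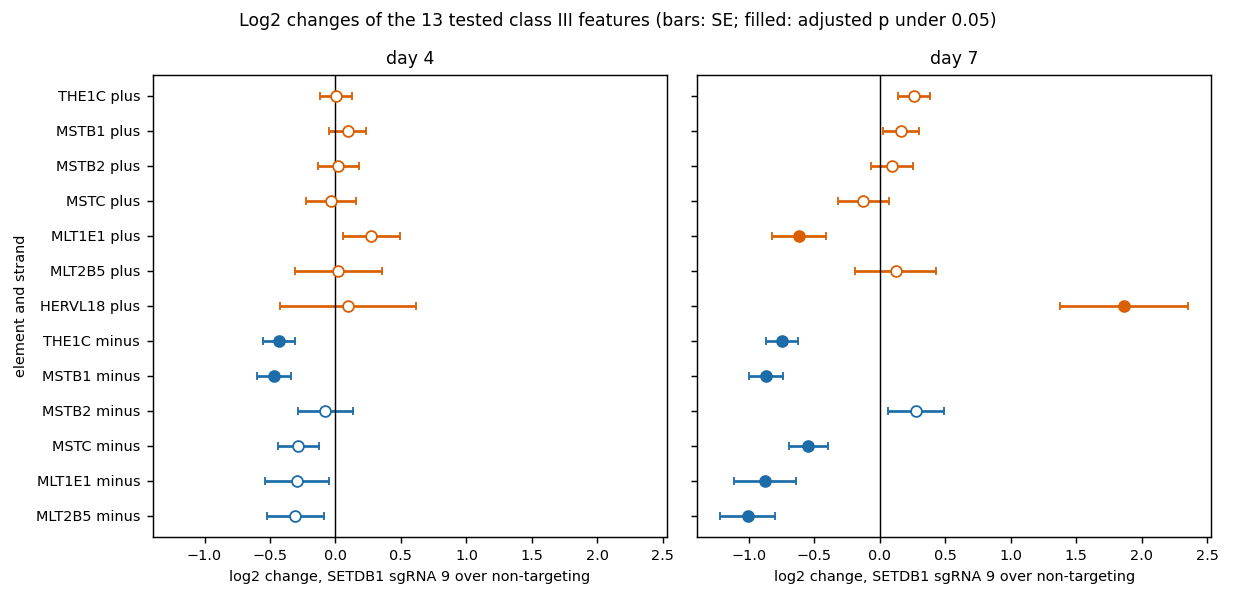
Log2 change of each tested class III feature (x axis, SETDB1 sgRNA 9 over non-targeting) at day 4 and day 7, with bars of 1 SE, blue for minus and orange for plus strands, and filled points for an adjusted p under 0.05. Filled minus strands number 2 at day 4 and 5 at day 7, all left of 0 in values relative to the table. In unscaled counts both at day 4 and MSTC at day 7 lie right of 0, and none of the falls was called.

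At day 7 the minus strands of THE1C, MSTB1, MSTC, MLT1E1 and MLT2B5 were lower with SETDB1 sgRNA 9 relative to the table, MSTC turning to 0.04 in unscaled counts. None of these falls was called in unscaled counts. There the log2 changes were -0.15 for THE1C, -0.26 for MSTB1, -0.28 for MLT1E1 and -0.39 for MLT2B5 (edgeR adjusted p = 0.598, 0.312, 0.448 and 0.239). THE1C had 927, 1258 and 1169 minus strand counts in the SETDB1 libraries and 1397, 1275 and 1041 in the non-targeting ones. Scaled, it averaged 21945 ± 913 CPM in SETDB1 libraries and 36873 ± 763 CPM in non-targeting libraries (SD, n = 3), and the groups lay far apart. The log2 change was -0.75 ± 0.12 (SE; edgeR adjusted p = 4.21e-06). MSTB1 had 240, 334 and 330 minus strand counts in the SETDB1 libraries, against 404, 349 and 328 in the non-targeting ones. It averaged 5898 ± 288 CPM with SETDB1 sgRNA 9 and 10789 ± 748 CPM without (SD, n = 3), again with no overlap, and a log2 change of -0.87 ± 0.13 (SE; edgeR adjusted p = 2.19e-06).

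MSTC, the member with the most one-sided strand use, had 318, 309 and 353 minus strand counts in the SETDB1 libraries and 353, 303 and 296 in the non-targeting ones. Scaled, it averaged 6544 ± 1339.7 CPM with SETDB1 sgRNA 9 and 9519 ± 865 CPM without (SD, n = 3), a log2 change of -0.55 ± 0.15 (SE; edgeR adjusted p = 0.00278). MLT1E1, an LTR of the oldest MaLR group, was lower on both strands and was the only class III element called on both; with no scaling neither call held (-0.03 on the plus and -0.28 on the minus strand). Its plus strand had 44, 59 and 63 counts in the SETDB1 libraries and 72, 61 and 36 in the non-targeting ones (log2 change -0.62 ± 0.20, SE; edgeR adjusted p = 0.0113). Its minus strand had 25, 34 and 31 counts with SETDB1 sgRNA 9 and 42, 42 and 25 without (log2 change -0.87 ± 0.24, SE; edgeR adjusted p = 0.00253). In deposited counts the arms overlapped on each strand of MLT1E1, and after scaling they did not. The plus strand call was lost without non-targeting replicate 1 or replicate 2 of day 7 (edgeR adjusted p = 0.0712 and 0.0597).

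MSTB2, the MST LTR counted mainly on the plus strand, was not called on either strand. It had 128, 165 and 158 plus strand counts in the SETDB1 libraries and 96, 83 and 97 in the non-targeting ones, and 50, 69 and 53 minus strand counts in the SETDB1 libraries against 30, 36 and 27 in the non-targeting ones. These deposited counts did not overlap on either strand, and the SETDB1 libraries were the higher ones. Scaled to the table the log2 changes were 0.09 ± 0.16 on the plus strand and 0.28 ± 0.21 on the minus strand (SE; edgeR adjusted p = 0.662 and 0.276). Of the 6 class III minus strands tested, that of MSTB2 was the only one with a change above 0 at day 7 in values scaled to the table; in unscaled counts that of MSTC was above 0 too. The plus strands of THE1C (0.26 ± 0.12), MSTB1 (0.16 ± 0.14) and MSTC (-0.12 ± 0.19) did not pass either (log2, SE). THE1C missed narrowly (edgeR adjusted p = 0.0644) and its arms did not overlap, at 27063 ± 1543 CPM with SETDB1 sgRNA 9 and 22574 ± 2312 CPM without (SD, n = 3); scaled by table totals it passed (0.34, edgeR adjusted p = 0.0144).

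Of the ERVL elements, MLT2B5 was lower on the minus strand at day 7 and HERVL18 higher on the plus strand. MLT2B5, an LTR of ERVL proviruses, had 29, 41 and 36 minus strand counts in the SETDB1 libraries at day 7 and 44, 47 and 48 in the non-targeting ones, the only class III feature whose deposited counts lay wholly below, as 2.86% of the 70 did. It averaged 692 ± 22 CPM with SETDB1 sgRNA 9 and 1409 ± 285 CPM without (SD, n = 3), a log2 change of -1.01 ± 0.21 (SE; edgeR adjusted p = 0.000151). In unscaled counts the log2 change of MLT2B5 was -0.39 and was not called (edgeR adjusted p = 0.239). Its plus strand, with 28, 27 and 37 counts in the SETDB1 libraries against 20, 26 and 10 in the non-targeting ones, did not pass (0.12 ± 0.31, log2, SE). HERVL18, an internal ERVL model that would include coding sequence, had 14, 19 and 18 plus strand counts in the SETDB1 libraries and 5, 2 and 2 in the non-targeting ones. It averaged 334 ± 14 CPM with SETDB1 sgRNA 9 and 86.4 ± 37.5 CPM without (SD, n = 3), and was 3.64-fold higher (log2 change 1.86 ± 0.49, SE; edgeR adjusted p = 0.00195). HERVL18 passed the filter on low counts only through the SETDB1 libraries of day 7. With the filter left out the change was 1.69 (edgeR adjusted p = 0.00324). On its minus strand HERVL18 had 4, 8 and 7 counts with SETDB1 sgRNA 9 and 3, 3 and 2 without, too few for a test. At day 4 it had 10, 6 and 7 plus strand counts in the SETDB1 libraries and 6, 3 and 5 in the non-targeting ones, which overlapped (0.10 ± 0.52, log2, SE).

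In all, 6 of the 13 tested class III features were lower at day 7 and 1 was higher in values scaled to the table (0 were lower with no scaling), against 25.7% lower and 30.0% higher of the 70 features of the table (edgeR adjusted p under 0.05). The libraries of the arms lay apart, with SETDB1 sgRNA 9 below, for the same number, 6 of the 13, where 24.3% of the 70 did, and above for 2, where 31.4% did. The feature called higher, HERVL18 on the plus strand, is among these 2. It was tested only because of its counts in the SETDB1 libraries of day 7. By strand, 5 of the 6 minus strands were lower, and of all 35 minus strands 14 were. Of the 7 plus strands 1 was lower and 1 higher, and of all 35 plus strands 4 and 12 were. The median log2 change was -0.81 for the class III minus strands and 0.12 for the plus strands, beside 0.02 and 0.26 for the strands of the whole table. The 13 other LTR models of the table, whose names start with HERV, HUERS, LTR or MER, divided into 7 higher and 5 lower of 15 tested features at day 7, with a median of -0.25 for their minus strands and of 0.57 for their plus strands. At day 4 they had 3 higher and 4 lower of 15. The table itself changed in many features, so the share of class III calls at day 7 is to be read against 55.7% of all features called in either direction.

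In counts as deposited, the class III plus strands summed to more with SETDB1 sgRNA 9 at both days, while the sums of the minus strands overlapped between the arms. Summed over the 7 elements, plus strand counts averaged 1764 ± 285 in SETDB1 libraries and 1121 ± 104 in non-targeting libraries at day 4, and 2109 ± 280.4 and 1228 ± 253 at day 7 (SD, n = 3). The arms did not overlap at either day. Minus strand counts averaged 1838 ± 107 with SETDB1 sgRNA 9 and 1598 ± 222 without at day 4, and 1875 ± 247 and 2032 ± 254 at day 7 (SD, n = 3), and overlapped at both. As a part of the table total the minus strands made up 3.66% ± 0.29 with SETDB1 sgRNA 9 and 5.23% ± 0.40 without at day 4, and 3.80% ± 0.30 and 5.92% ± 0.55 at day 7 (SD, n = 3). The plus strands made up 3.48% ± 0.27 and 3.68% ± 0.26 at day 4, and 4.27% ± 0.36 and 3.53% ± 0.17 at day 7 (SD, n = 3). The minus strand part was thus smaller in every SETDB1 library of both days, and the plus strand part larger in each at day 7 alone. No test was made on these sums. Of the 70 features, 61.4% lay wholly above in the SETDB1 libraries at day 4 and 47.1% at day 7 in deposited counts; among the 13 class III features the numbers were 6 and 7. With no scaling 35 of the 70 features were called higher and 0 lower at day 4, and 37 and 1 at day 7 (edgeR). Of the 13 class III features 5 were called higher at each day and 0 lower, and the median of the table moved up by 0.60 at day 7. At day 7 those 5 were the plus strands of THE1C (0.85), MSTB1 (0.76), MSTB2 (0.71) and HERVL18 (2.45) and the minus strand of MSTB2 (0.88; log2). How much of the difference between arms in table totals is sequencing depth and how much is repeat RNA cannot be told apart from these tables.

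**Figure D3:**
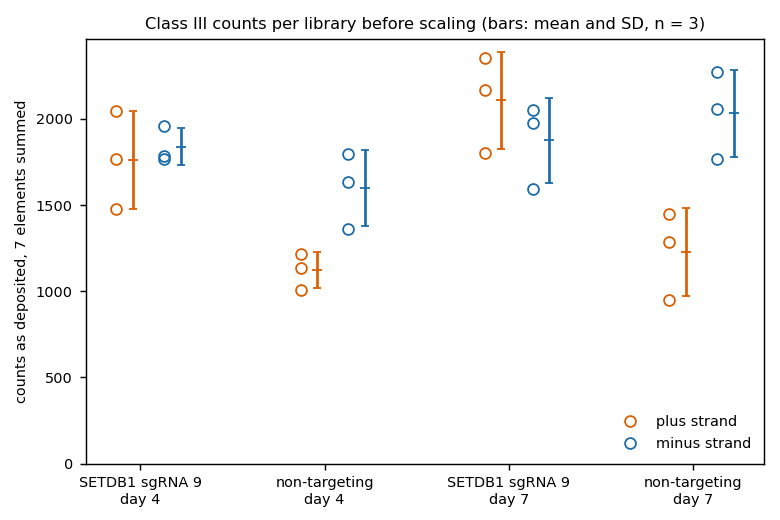
Deposited counts of the 7 class III elements summed per library (y axis from 0), by group on the x axis, plus strand in orange and minus strand in blue, with the mean and SD of 3 libraries. The plus strand sums average 2109 in SETDB1 libraries and 1228 in non-targeting libraries at day 7, while the minus strand sums, averaging 1875 and 2032 in the same order, overlap.

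How an element's counts divide between its strands does not depend on depth or on the rest of the table. At day 7 THE1C and MSTB1 had fewer minus than plus strand counts in every SETDB1 library and more in every non-targeting one. For THE1C the minus strand share was 44.8% ± 0.4 in SETDB1 libraries, on 3354 minus and 4128 plus counts, and 62.1% ± 2.5 in non-targeting ones, on 3713 and 2295 (SD, n = 3). The log2 odds of the minus strand changed by -1.01 ± 0.15 (SE; edgeR adjusted p = 4.57e-08). For MSTB1 it held 42.4% ± 2.9 with SETDB1 sgRNA 9 and 60.1% ± 1.9 without, a change of -1.03 ± 0.17 (SE; edgeR adjusted p = 2.61e-07). MLT2B5 followed, at 53.5% ± 5.9 with SETDB1 sgRNA 9 and 72.0% ± 9.6 without (-1.11 ± 0.38, SE; edgeR adjusted p = 0.0163), on 198 and 195 counts of both strands. Its call was lost without SETDB1 sgRNA 9 replicate 3 of day 7 (edgeR adjusted p = 0.071) or non-targeting replicate 3 of day 7 (0.14), and with limma on the log2 ratio (limma adjusted p = 0.0528).

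The other 4 elements did not pass at day 7. The minus strand share averaged 81.9% ± 0.9 with SETDB1 sgRNA 9 and 86.0% ± 0.7 without for MSTC, 35.3% ± 2.0 and 39.5% ± 2.3 for MLT1E1, and 26.6% ± 3.9 and 49.2% ± 11.3 for HERVL18 (SD, n = 3), each without overlap between the arms. For MLT1E1 the gap was narrow, with the highest SETDB1 library at 36.6% and the lowest non-targeting library at 36.8%. HERVL18 was tested here only because of its plus strand counts in the SETDB1 libraries of day 7, the group in which its minus strand share is low. Its non-targeting share of day 7 rests on 9 plus and 8 minus counts (log2 odds change -1.24 ± 0.90, SE, edgeR adjusted p = 0.302). MSTB2 held 27.6% ± 2.2 of its counts on the minus strand with SETDB1 sgRNA 9 and 25.3% ± 4.4 without, and overlapped (log2 odds change 0.18 ± 0.26, SE; edgeR adjusted p = 0.676). MSTB1 and MSTB2 were set against each other directly, a comparison chosen after their values were seen. Within a library the log2 odds of MSTB1 exceeded those of MSTB2 by 0.95 ± 0.32 in SETDB1 libraries and by 2.15 ± 0.40 in non-targeting libraries of day 7 (SD, n = 3; two-sided exact permutation p = 0.1). No smaller p can come from 3 libraries against 3. At day 4 the excess was 1.38 ± 0.39 and 1.88 ± 0.17 (SD, n = 3; two-sided exact permutation p = 0.2).

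At day 4 the minus strand share of THE1C was 51.3% ± 3.1 with SETDB1 sgRNA 9 and 58.7% ± 1.8 without, and that of MSTB1 was 48.3% ± 4.5 and 58.3% ± 4.7 (SD, n = 3). The log2 odds changed by -0.43 ± 0.15 for THE1C (SE; edgeR adjusted p = 0.0484) and by -0.58 ± 0.17 for MSTB1 (SE; edgeR adjusted p = 0.00828). THE1C lay at the threshold. Its call was lost when any of 8 of the 12 libraries was left out, namely SETDB1 sgRNA 9 replicate 3 of day 4 (edgeR adjusted p = 0.28), replicate 1 or 2 of non-targeting day 4 (0.13 and 0.127), replicate 2 or 3 of SETDB1 sgRNA 9 day 7 and any non-targeting replicate of day 7 (0.0586 to 0.0785). It was also lost with the replicate block (edgeR adjusted p = 0.092) and with limma on the log2 ratio (limma adjusted p = 0.0904). That of MSTB1 was lost without non-targeting replicate 1 of day 4 (edgeR adjusted p = 0.13) and with limma on the log2 ratio (limma adjusted p = 0.0904).

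Counted over elements, 2 of the 7 class III elements had a lower minus strand share at day 4 and 3 at day 7, against 10.3% and 25.6% of the 39 elements tested, and 0 had a higher one, against 2.56% and 7.69% (edgeR adjusted p under 0.05). The arms lay apart, with the SETDB1 libraries below, for 3 of the 7 at day 4 and 6 of the 7 at day 7, where 15.4% and 41.0% of the 39 elements did; with the SETDB1 libraries above it was 0 of the 7 at each day, and 5.13% and 7.69% of the 39. HERVL18, among the 6, was tested only because of its plus strand counts in the SETDB1 libraries of day 7. Some of these gaps at day 4 were narrow. The highest SETDB1 library stood at 53.2% for MSTB1 and 37.96% for MLT1E1, and the lowest non-targeting one at 53.7% and 38.75%. The median log2 odds change was -0.33 at day 4 and -1.01 at day 7 for class III, beside -0.25 and -0.42 over the table and -0.46 and -0.27 over 10 other LTR elements. Summed over class III, the minus strand held 51.2% ± 2.9 with SETDB1 sgRNA 9 and 58.7% ± 1.2 without at day 4, and 47.1% ± 0.6 and 62.5% ± 2.1 at day 7 (SD, n = 3). Summed over the other 38 elements it held 72.5% ± 4.5 and 71.7% ± 2.5 at day 4, and 71.9% ± 1.7 and 75.9% ± 0.9 at day 7 (SD, n = 3). That sum is weighted by counts, so it mostly follows the most abundant of the 38.

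**Figure D4:**
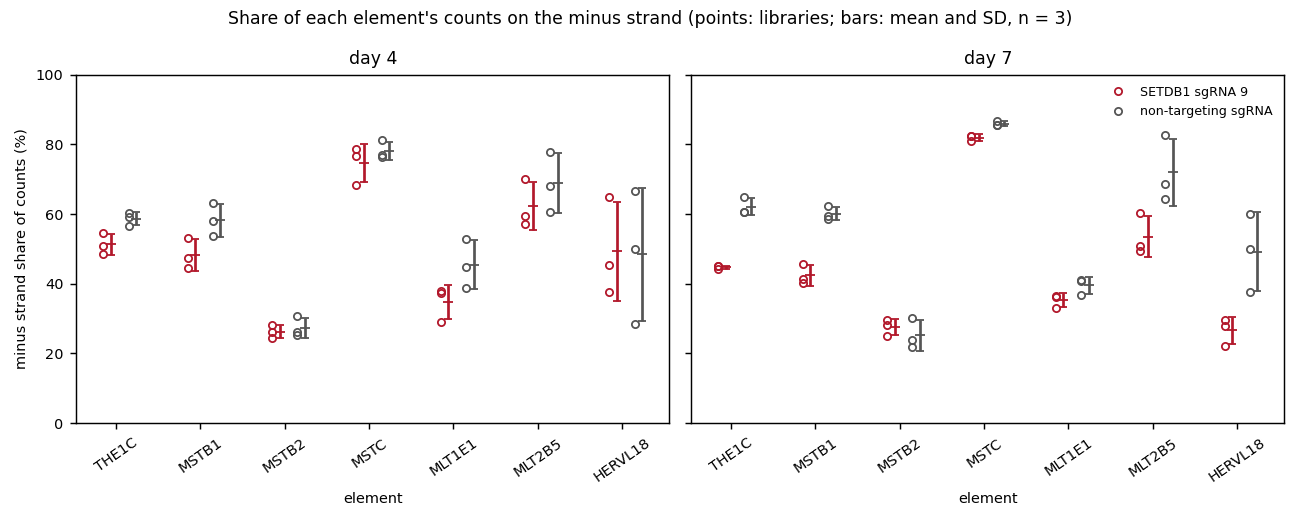
Minus strand share of the counts of each class III element (y axis, % of both strands) at day 4 and day 7, with SETDB1 sgRNA 9 in red and non-targeting sgRNA in grey, points for libraries and bars for the mean and SD of 3. At day 7 the red points lie below the grey ones for every element but MSTB2, and THE1C stands at 44.8% against 62.1%. Of the 39 elements tested over the table, 41.0% lay below in this way at day 7. HERVL18 was tested only because of its plus strand counts in the SETDB1 libraries of that day.

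Whether the effect of SETDB1 sgRNA 9 differed between the days was tested as an interaction. None of the 13 class III features passed (edgeR adjusted p between 0.0525 and 0.982), against 5.71% of the 70 features. An unadjusted edgeR p under 0.05 was found for 4 of the 13 and for 17 of the 70. The nearest was the plus strand of MLT1E1, whose change was lower at day 7 by a log2 difference of -0.89 ± 0.30 (SE; edgeR adjusted p = 0.0525). In the scaled values that were tested, its arms overlapped at day 4, with means of 1355 CPM in SETDB1 libraries and 1105 CPM in non-targeting libraries, and lay apart at day 7, with means of 1084 CPM and 1645 CPM in that order. In deposited counts it was the reverse, as the 61, 67 and 67 counts in the SETDB1 libraries of day 4 stood above the 49, 25 and 32 of the non-targeting ones and the arms overlapped at day 7. It passed without SETDB1 sgRNA 9 replicate 1 of day 4 (edgeR adjusted p = 0.0305), non-targeting replicate 1 of day 4 (0.0441) or non-targeting replicate 3 of day 7 (0.0454). With DESeq2 it passed as well (-0.999, DESeq2 adjusted p = 0.0175), and the minus strands of THE1C (-0.42) and MSTB1 (-0.50) passed too, each with a DESeq2 adjusted p of 0.0307. For HERVL18 on the plus strand the difference was 1.77 ± 0.74 and for the minus strand of MLT2B5 -0.70 ± 0.30 (log2, SE; edgeR adjusted p = 0.136 and 0.143). HERVL18 on the plus strand was tested only because of its counts in the SETDB1 libraries of day 7. The change in minus strand share did not pass for any class III element either, the nearest being THE1C (-0.58 ± 0.22, log2 odds, SE; edgeR adjusted p = 0.115, and 0.0288 without SETDB1 sgRNA 9 replicate 1 of day 4), against 2.56% of 39 elements in each direction.

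Between day 7 and day 4 of the non-targeting cells 1 of the 13 class III features was higher and 0 lower, against 2.86% of the 70 features in each direction (edgeR adjusted p under 0.05). It was MSTC on the minus strand, with 353, 303 and 296 counts at day 7 and 221, 187 and 159 at day 4. It averaged 9519 ± 865 CPM at day 7 and 5957 ± 533 CPM at day 4 (SD, n = 3), without overlap (log2 change 0.67 ± 0.15, SE; edgeR adjusted p = 0.00867). The call was lost without replicate 3 of either group (edgeR adjusted p = 0.127 without that of day 7 and 0.126 without that of day 4) and in unscaled counts (0.75, edgeR adjusted p = 0.065). In the non-targeting cells 4 of the 13 features lay wholly above at day 7 in scaled values, the minus strands of THE1C, MSTB1, MSTC and MLT2B5, where 11.4% of the 70 did. In deposited counts 3 did, those of MSTB1, MSTC and MLT2B5, beside 5.71% of the 70. In the SETDB1 cells MSTC on the minus strand averaged 6544 ± 1339.7 CPM at day 7 and 4916 ± 882 CPM at day 4 (SD, n = 3), which did not pass (0.41 ± 0.15, log2, SE; edgeR adjusted p = 0.0632) but passed with scaling by table totals (0.51), with L1P1_orf2 left out of the table (0.47) and without SETDB1 sgRNA 9 replicate 2 of day 4 (0.55; edgeR adjusted p = 0.0245). None of the 13 features passed in the SETDB1 cells, against 11.4% higher and 1.43% lower of the 70 by edgeR. Before adjustment, 3 of the 13 and 20 of the 70 had an edgeR p under 0.05. DESeq2 called 2, the plus strand of THE1C (0.23, DESeq2 adjusted p = 0.04997) and the minus strand of MSTB1 (-0.30, DESeq2 adjusted p = 0.0495). By edgeR the nearest was HERVL18 on the plus strand, with 14, 19 and 18 counts at day 7 and 10, 6 and 7 at day 4 (1.06 ± 0.39, log2, SE; edgeR adjusted p = 0.063). This feature was tested only because of its counts in these day 7 libraries, the higher side of the contrast. It passed with no filter, with table totals and with L1P1_orf2 left out (edgeR adjusted p = 0.0478, 0.033 and 0.0419), and without non-targeting replicate 1 of day 4, or replicate 2 or 3 of day 7 (edgeR adjusted p = 0.0474, 0.0386 and 0.0424). The plus strand of THE1C passed with table totals (0.38, edgeR adjusted p = 0.0227) and with L1P1_orf2 left out (0.34, edgeR adjusted p = 0.0345), and the minus strand of MSTB1 passed without non-targeting replicate 2 of day 4 (-0.42, edgeR adjusted p = 0.0268). In the SETDB1 cells 2 of the 13 features lay wholly above at day 7 in scaled values, the plus strands of HERVL18 and THE1C, where 14 of the 70 did, and 3 wholly below, the plus strand of MLT1E1 and the minus strands of MSTB1 and MLT2B5, where 14.3% did. In deposited counts 2 lay wholly above, HERVL18 on the plus and MSTC on the minus strand, where 17.1% of the 70 did. The contrasts between days share their libraries with those between arms.

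Over the 12 libraries the features whose normalised counts ran most like the minus strand of THE1C were the minus strands of MLT2B5 (Spearman 0.94), MSTB1 (0.92) and L1PA12_3end (0.92), the last a 3′ end model of a primate L1 retrotransposon. For the minus strand of MSTB1 they were the minus strands of L1PA12_3end (0.94), MLT2B5 (0.93) and L1PA10_3end (0.92), another L1 3′ end model. The minus strands of THE1C, MSTB1 and MLT2B5, from MaLR and ERVL alike, thus ran close to each other, and differences between these coefficients were not tested. For the plus strand of THE1C the nearest were the minus strands of L1MA8_3end (0.76) and LTR4 (0.66) and the plus strand of HERV3 (0.64). For the plus strand of MSTB1 they were the plus strands of L1PBb_5end (0.77), L1P1_5end (0.66) and CER, a satellite (0.64). The points share the libraries, the 4 groups and the scaling, so these values describe likeness within this table.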

How the data were processed

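Total RNA (100 ng) of THP-1 cells went into stranded libraries, per the labels' protocols. Each day has a deposited table of raw counts, with a plus and a minus strand column for every library. The submitters' processing notes list CASAVA 1.8, BWA and HTSeq but not what each did. The sources used here do not give the genome build, the repeat models or the handling of multi-mapping reads. Headers tied all 24 count columns to samples by their descriptions.

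The 7 elements, the lists and the tests were chosen with earlier results of these data known. Each strand of each of the 45 elements was a feature (90 in all). The filterByExpr step of edgeR 4.0.16 (R 4.3.3; minimum count 10, minimum total 15) left 70, and the features left out held 0.121% of counts. Table totals with TMM factors scaled the libraries. The 12 libraries entered a single quasi-likelihood fit with a mean per group (biological coefficient of variation 11.4%, with 8 residual degrees of freedom), with Benjamini-Hochberg adjustment over all 70 features and a threshold of 0.05. For the division between strands, edgeR took each strand of a library as a column, with library as a block and a strand effect in each group, over 39 elements with at least 1 strand that passed the filter. A standard error was taken from the F statistic. Both edgeR fits share information on spread between features, so their p-values rest on more than the residual degrees of freedom alone. CPM are normalised counts, and SDs are over 3 libraries.

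Every class III feature is named, and other features are named by Spearman correlation of log2(CPM + 1) alone, the 3 highest for each strand of THE1C and MSTB1. Alternatives were other scalings, no filter, DESeq2 1.42.0, limma 3.58.1 for the share, single libraries left out, fits by day and a replicate block; the direct comparison of MSTB1 and MSTB2 was added later. Steps were tested on simulated data. Simulated strand shares had no spread between libraries beyond sampling noise, so they do not show how the share test handles such spread. The labels do not say that replicates were separate cultures, so p-values measure only how far these samples spread, which may be technical. No libraries of a group agreed within sampling noise (chi-square 1.78 to 16.3 per degree of freedom), so each was counted. Sequences of the elements were not used here.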

Additional observations from a re-analysis of the deposited data

How the results depend on the processing

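The 7 class III calls of day 7 were 6 to 7 without single libraries, and 7 with DESeq2, without a filter, by day or with the replicate block. With no scaling there were 5, all higher, of which HERVL18 on the plus strand was among the 7; that of THE1C was called with table totals as well, which gave 8. The 2 calls of day 4 numbered 0 to 2 without single libraries, 0 in a fit of that day alone and 5 (higher) with no scaling, where the minus strands of THE1C (0.17) and MSTB1 (0.14) and the plus strand of MSTC (0.59) turned above 0, as did the minus strand of MSTC at day 7 (0.042; log2). The cause was not tested. Over the table, no scaling gave 35 calls at day 4 and 38 at day 7, in place of 17 and 39, and a fit of day 4 alone gave 10. The 0 class III calls of the interaction became 3 with DESeq2 and 1 with DESeq2 size factors, no filter or L1P1_orf2 left out, and ranged from 0 to 1 without single libraries. Over the table its 4 calls became 10 with DESeq2, 8 with DESeq2 size factors or no filter and 7 with L1P1_orf2 left out. Day 7 against day 4 gave 3 class III calls in the SETDB1 cells with table totals or without L1P1_orf2, 2 with DESeq2, 1 with no filter and 0 to 1 without single libraries, in place of 0. Over the table it gave 12 calls with table totals or without L1P1_orf2, 16 with DESeq2 and 13 with no filter, in place of 9. In the non-targeting cells it gave 2 class III calls with no filter or without L1P1_orf2, 0 with no scaling and 0 to 1 without single libraries, in place of 1. Over the table these cells gave 4 calls with no filter, 5 without L1P1_orf2 and 0 with no scaling, in place of 4. The minus strand share gave 2 to 3 calls at day 7 without single libraries, 2 with limma and 3 with the replicate block; at day 4 it gave 0 to 2 without single libraries, 0 with limma and 1 with the replicate block, in place of 2, and its interaction 0 to 1 without single libraries. No pairing of libraries by replicate number was seen, though pairing was not tested. Deviations of same-numbered libraries correlated between -0.32 and 0.31, above 0.1 in 4 of 18 pairs, and 3 of 12 libraries correlated best with their own number. The replicate block changed no other call. Of 1575 single values recomputed, 1506 kept their side of the threshold and their direction or had no call in either, 30 lost a call, 35 gained one and 4 reversed. Low counts limit HERVL18 and MLT2B5 most.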
